A study of Mus musculus with 16 samples.

Results

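The macrophage identity genes examined here are 9 genes by which macrophages are commonly recognised or maintained: Csf1r, Csf1, Adgre1, Itgam, Cd68, Cd14, Lyz2, Spi1 and Tyrobp. They were measured by the array probe sets that carry 1 of these symbols and no other in the platform annotation, which gave 14 probe sets of the 45037 analysed and 9 genes of the 18193 measured. Csf1r had 3 such probe sets, Csf1 had 4, and each other gene had 1. Transcript levels were measured in 16 tumors of B16-OVA, a mouse melanoma line that expresses ovalbumin, grown under the flank skin of C57BL/6-Ly5.1 mice aged 6 to 12 weeks and taken on day 18, with 4 mice and 1 array per mouse in each of 4 groups. MEKi+CD40 mice received GDC-0623, an inhibitor of the kinase MEK, at 30 mg/kg daily together with the anti-CD40 antibody (CD40 mIgG1). CD40 mice received vehicle and the same antibody, given on treatment days 3, 5 and 7 and again 1 day before analysis. MEKi mice received GDC-0623 and control IgG, and control mice received vehicle and control IgG. All tumors thus came from 1 transplanted cell line injected with Matrigel. RNA came from unsorted tumor pieces that mix tumor cells with host cells, so that fewer macrophages and less RNA per macrophage cannot be told apart.

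Macrophages arise from blood monocytes or from precursors seeded before birth, and they depend on the receptor CSF1R, a tyrosine kinase, and its ligands CSF1 and IL-34 for survival and growth. The transcription factor PU.1, encoded by Spi1, is required to form the lineage and binds enhancers and promoters of many myeloid genes at purine-rich sites. Adgre1 encodes an adhesion receptor on the surface of mature mouse macrophages, Itgam the CD11b chain of the integrin Mac-1, Cd68 a glycoprotein of late endosomes and lysosomes, Cd14 a co-receptor for bacterial lipopolysaccharide, Lyz2 the lysozyme of macrophages, and Tyrobp the adaptor DAP12 that links activating receptors to the kinase SYK. Monocytes and neutrophils also express several of these genes, Itgam, Lyz2, Tyrobp and Cd14 among them, while Csf1 is made by fibroblasts, endothelial cells and some tumor cells as well as by macrophages. CD40 is a receptor on macrophages, dendritic cells and B cells. Tumors commonly hold many macrophages, but the authors reported relatively few myeloid cells in their B16-OVA model.

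Because Spi1 is itself a member and PU.1 acts on myeloid promoters, the 250 bases before the start of the gene were searched for the core of its binding site, GAGGAA, on either strand (TTCCTC when read on the opposite strand), the only motif searched. RefSeq promoter windows (build GRCm38.p6) were used for 4 of the 9 genes, Csf1, Itgam, Cd68 and Lyz2. Itgam held 2 matches, 84 and 15 bases before the start, Cd68 held 1 match, 225 bases before the start, and Csf1 and Lyz2 held none. The same letters occur in 7639 of 32851 RefSeq windows of this length, or 23.3%, so a match describes the window only. The windows of both genes with a match are shown 5′ to 3′ on the strand of the gene, with the matches in capitals, for Itgam at chr7:128062390-128062639 on the plus strand and for Cd68 at chr11:69666171-69666420 on the minus strand.
Itgam: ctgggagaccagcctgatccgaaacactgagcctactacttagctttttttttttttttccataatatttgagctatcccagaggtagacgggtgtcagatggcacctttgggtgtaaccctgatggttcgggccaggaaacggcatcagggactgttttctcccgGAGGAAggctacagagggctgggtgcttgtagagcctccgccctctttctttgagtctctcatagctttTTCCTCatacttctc
Cd68: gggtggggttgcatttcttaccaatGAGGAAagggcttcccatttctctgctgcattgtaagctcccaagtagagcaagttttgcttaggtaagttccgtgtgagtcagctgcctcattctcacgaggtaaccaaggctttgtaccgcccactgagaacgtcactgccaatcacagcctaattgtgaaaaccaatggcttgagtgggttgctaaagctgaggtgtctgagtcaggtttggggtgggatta

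Values are log2 signals as deposited, and 1 unit is a doubling. Where a gene had several probe sets, the brightest over all arrays stood for it. A background level of 4.95 was taken from olfactory receptor probe sets, genes that tumors are not known to use, and 39.9% of all probe sets lay at or below it. The label melanoma was borne out by its markers, as the mean of 9 melanocyte genes such as Tyrp1, Dct and Pmel lay between 13.09 and 13.50 in every tumor. Skeletal muscle transcripts were high in 3 tumors, MEKi+CD40 tumor 1 (mean of 15 muscle genes 11.73), MEKi+CD40 tumor 3 (8.79) and CD40 tumor 3 (7.50), against a control mean of 4.55, and the other 13 tumors lay at most 0.83 above that mean. These 3 tumors were also among the 4 tumors with the highest mean of the 8 members other than Csf1, so results below are given with and without them where they move. The fibroblast and matrix list (10 genes), whose cells also make Csf1, lay above its control mean by 3.53, 1.78 and 2.39 in these tumors in the same order, and by 2.27 in MEKi tumor 3. The part of either tissue in the members' values was not tested. A gene was called when its limma p, adjusted over all 45037 probe sets, was under 0.05, and groups are said not to overlap when every tumor of one lies above every tumor of the other.

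All 9 genes had the same order of group means, CD40 highest, then MEKi+CD40, then control, then MEKi. Between neighbours in this order no member was called, that is, for MEKi+CD40 minus CD40, for MEKi+CD40 minus control or for MEKi minus control. A missing call does not show that groups were alike, and Csf1 did not overlap between MEKi and control tumors. The ends of the order did differ for Csf1 and Cd68, which were called higher in CD40 than in MEKi tumors. The spread within a group was large, up to an SD of 1.73 for Csf1r and for Cd14 in MEKi+CD40 tumors.

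**Figure D1:**
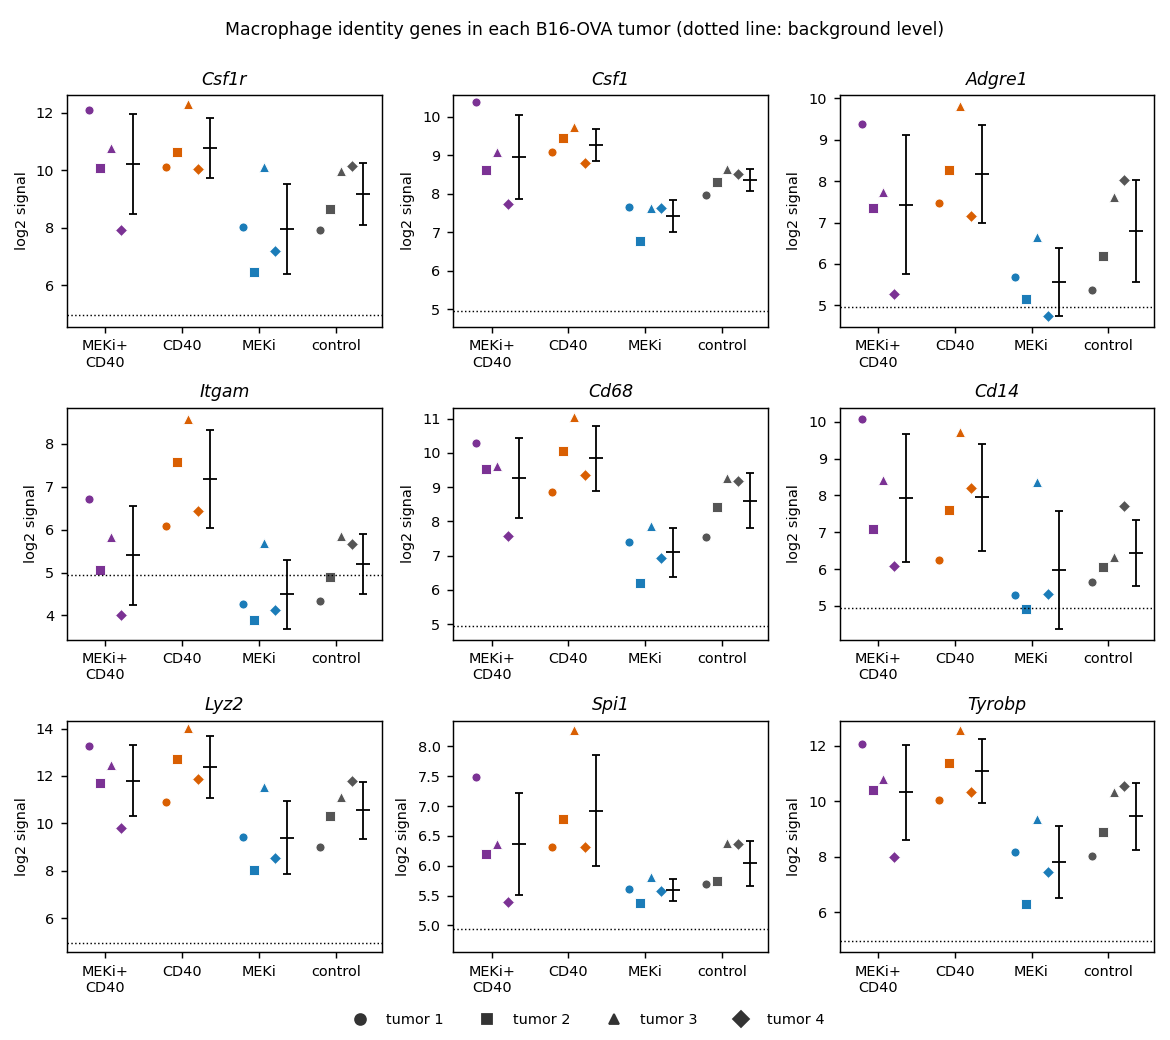
Log2 signal (y axis) of each macrophage identity gene in the 4 tumors of each group (x axis), 1 symbol per tumor number, with the group mean and SD (n = 4) beside them and the background level of 4.95 as a dotted line. CD40 tumors have the highest and MEKi tumors the lowest mean in every panel, and MEKi+CD40 tumors are spread widely, with tumor 1 high and tumor 4 low.

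The ligand Csf1 had log2 signals of 9.07, 9.44, 9.72 and 8.79 in CD40 tumors 1 to 4, against 7.65, 6.78, 7.62 and 7.62 in MEKi tumors. MEKi+CD40 tumors had 10.37, 8.60, 9.08 and 7.74, and control tumors had 7.97, 8.29, 8.63 and 8.52. All 4 CD40 tumors lay above all control tumors, and all 4 MEKi tumors lay below them. By its brightest probe set, Csf1 was thus the only member whose CD40, control and MEKi groups were fully separated. MEKi and control tumors overlapped in each of its other probe sets, with differences of −0.405, −0.395 and −0.035. CD40 and control tumors overlapped in the 2 dimmest of these. Csf1 rose in CD40 over MEKi tumors by 1.84 ± 0.25 (SE, n = 4 per group), a 3.57-fold difference, with an adjusted p of 0.0171. A second Csf1 probe set was called as well, with a difference of 1.03 and an adjusted p of 0.0273. The remaining 2 Csf1 probe sets were dimmer, with means of 5.98 and 5.64 over all tumors, and differed by 0.25 and 0.81 without a call. The mean of all 4 probe sets differed by 0.98 (adjusted p = 0.0315), and the call was lost without CD40 tumor 2 (1.78, adjusted p = 0.0764).

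The receptor Csf1r had 10.10, 10.65, 12.31 and 10.05 in CD40 tumors, against 8.03, 6.47, 10.10 and 7.17 in MEKi tumors. MEKi+CD40 tumors had 12.08, 10.07, 10.76 and 7.93, and control tumors had 7.92, 8.65, 9.98 and 10.14. MEKi tumor 3 reached the lower end of the CD40 group, and the other 3 MEKi tumors lay well below it. Csf1r differed by 2.84 ± 0.78 between CD40 and MEKi tumors, which did not pass the limma test (adjusted p = 0.154), and its other 2 probe sets, which did not overlap between these groups, differed by 2.35 and 1.51 without a call. Without MEKi tumor 3, Csf1r was called (3.55, adjusted p = 0.0457), with adjusted p of 0.0414 to 0.334 over all alternatives. The 3 Csf1r probe sets moved together over the 16 tumors, with Pearson r of 0.96 to 0.98, as a description of 1 transcript measured on the same arrays.

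Cd68, the lysosomal glycoprotein, had 8.87, 10.05, 11.06 and 9.36 in CD40 tumors, against 7.39, 6.20, 7.86 and 6.93 in MEKi tumors. MEKi+CD40 tumors had 10.29, 9.54, 9.62 and 7.58, and control tumors had 7.55, 8.43, 9.26 and 9.18. Every CD40 tumor was above every MEKi tumor, while MEKi+CD40 tumor 4 lay within the MEKi range. Cd68 rose by 2.74 ± 0.49 in CD40 over MEKi tumors, 6.68-fold, with an adjusted p of 0.0417. This call lay close to the threshold. It was lost with cyclic loess (adjusted p = 0.0525), with trend and robust eBayes (0.108) and without CD40 tumor 2 (0.149), CD40 tumor 4 (0.0656), MEKi tumor 1 (0.097), MEKi tumor 2 (0.122) or MEKi tumor 4 (0.12).

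Tyrobp, the DAP12 adaptor, had 10.03, 11.39, 12.58 and 10.33 in CD40 tumors, against 8.16, 6.28, 9.36 and 7.44 in MEKi tumors. MEKi+CD40 tumors had 12.07, 10.42, 10.82 and 7.98, and control tumors had 8.03, 8.91, 10.35 and 10.55. The CD40 and MEKi groups did not overlap, and the difference of 3.27 ± 0.71, or 9.66-fold, was the largest of the 9 genes, yet its adjusted p was 0.0832. Adgre1, the adhesion receptor gene, had 7.47, 8.27, 9.82 and 7.17 in CD40 tumors and 5.68, 5.15, 6.65 and 4.75 in MEKi tumors, a difference of 2.63 ± 0.59 without overlap (adjusted p = 0.0924). MEKi tumor 4 lay below the background level for Adgre1.

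Itgam, the CD11b chain, had 6.08, 7.58, 8.58 and 6.44 in CD40 tumors, against 4.26, 3.90, 5.68 and 4.12 in MEKi tumors. MEKi+CD40 tumors had 6.72, 5.06, 5.83 and 4.01, and control tumors had 4.34, 4.90, 5.86 and 5.67. Itgam was above background in all 4 CD40 tumors but lay below it in 3 MEKi, 2 control and 1 MEKi+CD40 tumors, so its differences from those groups are distances from background signal. It differed by 2.68 ± 0.57 between CD40 and MEKi tumors without overlap (adjusted p = 0.0790), was called with array weights (0.0484, within a range of 0.0359 to 0.228 over all alternatives), and differed by 1.98 ± 0.54 between CD40 and control tumors, again without overlap (adjusted p = 0.506).

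Lyz2, the macrophage lysozyme, was the brightest member and had 10.90, 12.71, 14.01 and 11.89 in CD40 tumors, against 9.43, 8.04, 11.53 and 8.55 in MEKi tumors. It differed by 2.99 ± 0.83 (adjusted p = 0.159), with MEKi tumor 3 inside the CD40 range. Lyz1 is a near copy of Lyz2, and the 2 probe sets annotated to Lyz1 that can bind several transcripts followed Lyz2 over the 16 tumors with Pearson r of 0.99, whereas the third Lyz1 probe set lay between 3.54 and 4.60, below background in all 16 tumors. Signals of Lyz1 and Lyz2 may be shared between these probe sets, and the value given for Lyz2 carries that limit.

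Spi1, the PU.1 gene, had 6.32, 6.78, 8.28 and 6.32 in CD40 tumors, against 5.61, 5.37, 5.82 and 5.57 in MEKi tumors, with a difference of 1.33 ± 0.39 and no overlap (adjusted p = 0.180). MEKi tumors spanned only 0.45 units for Spi1, against 1.96 in CD40 tumors. Cd14, the lipopolysaccharide co-receptor, had 6.25, 7.59, 9.73 and 8.21 in CD40 tumors and 5.30, 4.91, 8.35 and 5.32 in MEKi tumors, and was the member with the weakest separation of these groups, at 1.98 ± 0.88 (adjusted p = 0.366). MEKi tumor 3 lay far above the other 3 MEKi tumors for Cd14 and inside the CD40 range.

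In CD40 minus MEKi, 2 of the 9 genes were called higher and none lower, where 0.77% of all probe sets were called higher and 0.122% lower. At an unadjusted p under 0.05, 8 of the 9 were higher, against 5.38% of all probe sets. Csf1, Adgre1, Itgam, Cd68, Spi1 and Tyrobp, 6 of the 9, did not overlap, against 3.65% of all probe sets that were higher without overlap. The median difference of the 9 genes was 2.68, beside −0.045 over all probe sets. An exact two-sided permutation test over the 8 tumors cannot go below p = 0.0286, which these 6 genes reached, and with adjustment over all probe sets that became 0.318. Without CD40 tumor 3, the muscle-bearing tumor in this comparison, Csf1 differed by 1.68 (adjusted p = 0.0194), Cd68 by 2.33 (adjusted p = 0.0379) and Spi1 by 0.88 (adjusted p = 0.0349), and the median was 2.21. The pan-leukocyte list (10 genes, such as Ptprc and Cd53) lay between 8.89 and 10.83 in CD40 tumors and between 6.04 and 7.87 in MEKi tumors, with 4 of 10 genes called higher. The T cell list (8 genes) lay between 5.67 and 7.19 in CD40 tumors and between 4.98 and 5.20 in MEKi tumors, with Cd3g called, and 2 of its 8 genes lay below background. The neutrophil list (9 genes, 5 of them below background), whose cells also express Itgam, lay between 4.50 and 5.78 in CD40 tumors and between 4.48 and 4.58 in MEKi tumors, with none called. The NK cell list (6 genes, 3 of them below background) lay between 5.05 and 6.00 in CD40 tumors and between 4.75 and 4.79 in MEKi tumors, with none called. Median differences were 2.83 for the pan-leukocyte, 1.05 for the T cell and 0.74 for the NK cell list, against 0.0075 for neutrophils. For conventional dendritic cells (9 genes, 4 of them below background) the median was −0.0375. It was 0.0675 for B cells (7 genes, 5 below background) and −0.0525 for mast cells and basophils (7 genes, 6 below background). Pan-leukocyte, T cell and NK cell levels thus moved with the members, and their part in the result was not tested. The medians of the other 4 leukocyte lists lay near 0. Many of their genes lay below background, so these medians cannot show whether those cells differed. In the neutrophil and the B cell list, 2 genes each were higher without overlap and none lower. In the dendritic cell list 1 was higher and 2 lower, and in the mast cell list 1 was lower. In the pan-leukocyte list 8 of 10 genes were higher without overlap, in the T cell list 4 of 8 and in the NK cell list 3 of 6, with none lower. Of all 18193 genes, 890 were higher and 1080 lower without overlap.

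**Figure D2:**
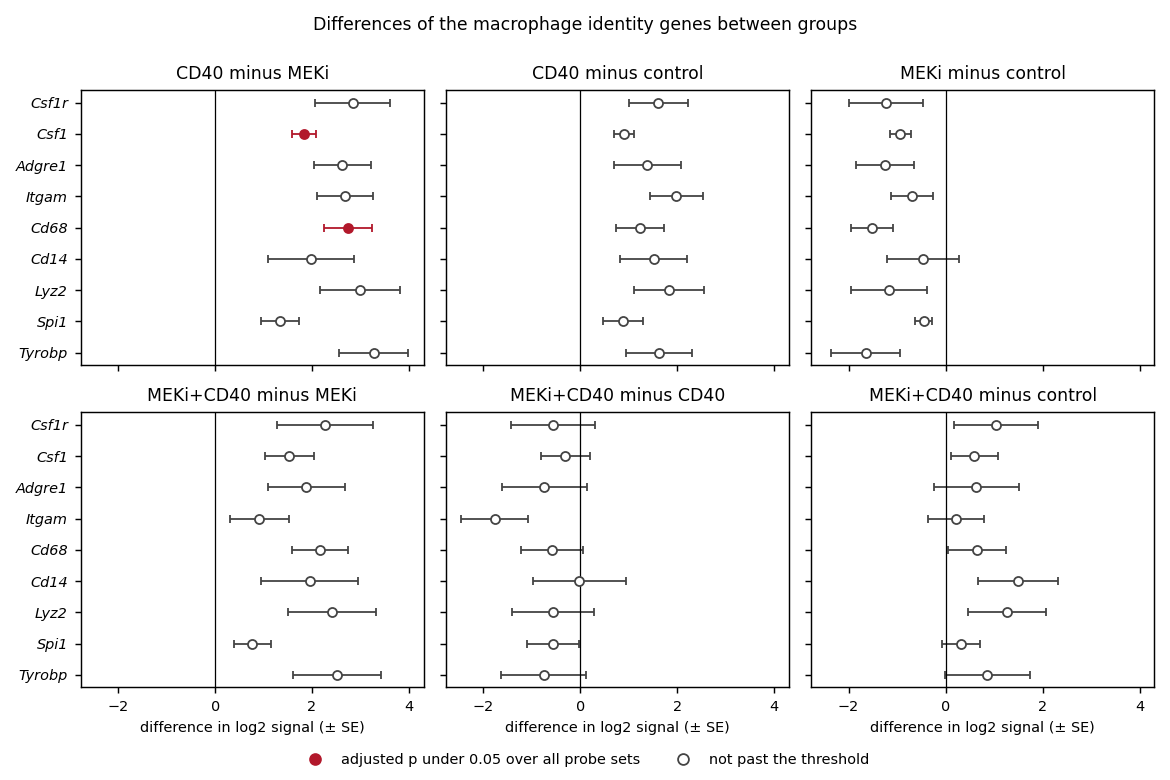
Difference in log2 signal between groups with its SE (x axis, n = 4 tumors per group) for each macrophage identity gene (y axis) in 6 comparisons, filled red where the gene was called. Only Csf1 and Cd68 in CD40 minus MEKi are filled, all 9 genes lie above 0 for both comparisons of a CD40-treated group with MEKi, and all 9 lie below 0 for MEKi minus control and MEKi+CD40 minus CD40.

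The question of what each agent did alone was addressed against the same 4 control tumors, so the values of these comparisons are not independent of each other. CD40 minus control gave 9 positive differences of 0.88 (Spi1) to 1.98 (Itgam), with a median of 1.51 against −0.025 over all probe sets. No member and no probe set was called (0%), and the members' adjusted p ran from 0.466 to 0.623. At an unadjusted p under 0.05, 6 of the 9 were higher, against 3.33% of all probe sets. Csf1 (0.90 ± 0.21) and Itgam did not overlap, or 2 of 9, against 1.49% of all probe sets higher without overlap. Without CD40 tumor 3 the median was 0.92.

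MEKi minus control gave 9 negative differences of −1.65 (Tyrobp) to −0.45 (Spi1), with a median of −1.16 against 0.0125 over all probe sets. No member and no probe set was called (0%). At an unadjusted p under 0.05, 4 of the 9 were lower, against 3.32% of all probe sets, and the lowest p values belonged to Csf1 (−0.94 ± 0.22) and Cd68 (−1.51 ± 0.43). Csf1 alone did not overlap, against 1.68% of all probe sets lower without overlap. When 1 tumor was left out the median ran from −1.65 to −0.72, its smallest size without MEKi tumor 2, and Cd14 came as near to 0 as −0.04, without control tumor 4. The pan-leukocyte list had a median of −1.40, with 6 of 10 genes lower at an unadjusted p under 0.05, and the T cell list a median of −0.43, with 3 of 8 genes lower at that level, and their part in the members' values was not tested.

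MEKi+CD40 minus control gave differences of 0.21 (Itgam) to 1.49 (Cd14), with a median of 0.65 against 0.005 over all probe sets. No member was called, where 0.00888% of all probe sets were, none had an unadjusted p under 0.05 (8.6% of all probe sets were higher at that level), and none was free of overlap (5.41% of all probe sets were higher without overlap). The sign of most of these differences rested on the muscle-bearing MEKi+CD40 tumors 1 and 3. These were also the highest of their group in the mean of the 8 members other than Csf1 (10.17 and 9.01). Leaving them out was thus bound to lower the differences, whatever their muscle transcripts, and left only MEKi+CD40 tumors 2 and 4. Without MEKi+CD40 tumors 1 and 3 the median was −0.18, and 7 of the 9 genes were negative, between −0.66 (Itgam) and −0.045 (Cd68), with Cd14 (0.16) and Lyz2 (0.21) still positive. Leaving out 1 tumor gave medians of 0.28 without MEKi+CD40 tumor 1, 1.35 without MEKi+CD40 tumor 4, 0.39 without control tumor 1 and 1.04 without control tumor 4.

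MEKi+CD40 minus MEKi addressed what the antibody added to the inhibitor, and gave 9 positive differences of 0.77 (Spi1) to 2.51 (Tyrobp), with a median of 1.95 against −0.0175 over all probe sets. No member was called, where 1.15% of all probe sets were, and the lowest adjusted p was 0.0831, for Cd68 (2.16 ± 0.58). At an unadjusted p under 0.05, 5 of the 9 were higher, against 8.5% of all probe sets. Csf1 (1.53 ± 0.50, adjusted p = 0.132) was the 1 gene of 9 without overlap, against 5.22% of all probe sets higher without overlap. Without MEKi+CD40 tumors 1 and 3 the median was 0.75, with Cd68 at 1.47 and Itgam at 0.045. Leaving out these tumors, the highest of their group, was again bound to lower the median. The median was 1.23 without MEKi+CD40 tumor 1, and without MEKi+CD40 tumor 4 Cd68 was called (2.72, adjusted p = 0.0398), with adjusted p of 0.0313 to 0.335 over all alternatives.

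MEKi+CD40 minus CD40 addressed what the inhibitor added to the antibody, and gave 9 negative differences of −1.77 (Itgam) to −0.02 (Cd14), with a median of −0.57 against 0.02 over all probe sets. No member was called, where 4.74% of all probe sets were, and Itgam (−1.77 ± 0.69, adjusted p = 0.183) was the only member with an unadjusted p under 0.05, against 10.6% of all probe sets. None of the 9 was free of overlap, against 6.75% of all probe sets lower without overlap. The sign of the median rested on MEKi+CD40 tumor 4. Without it the median was 0.0208, with Csf1r (0.19), Csf1 (0.095), Cd14 (0.59), Lyz2 (0.10) and Tyrobp (0.0208) positive and Itgam (−1.30), Spi1 (−0.24), Adgre1 (−0.029) and Cd68 (−0.018) negative. The median was −0.15 without CD40 tumor 3, −0.90 without CD40 tumor 1 and −1.05 without MEKi+CD40 tumor 1. Without the 3 muscle-bearing tumors the median was −1.08 and Itgam differed by −2.17 (adjusted p = 0.0574). The interaction, the difference made by the antibody in inhibitor-treated mice less that in vehicle-treated mice, ran from −1.06 ± 0.88 (Itgam) to 0.93 ± 0.84 (Cd68), with no member and no probe set called (0%) and none of the members at an unadjusted p under 0.05, against 14.3% of all probe sets.

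The tumors of a group differed in all members at once. By the mean log2 signal of the 8 members other than Csf1, CD40 tumor 3 (10.80) stood highest, followed by MEKi+CD40 tumor 1 (10.17), and MEKi tumor 2 (5.79) stood lowest. MEKi+CD40 tumor 4 (6.76) ranked among the MEKi tumors and below 3 of the 4 control tumors, whereas MEKi tumor 3 (8.17) ranked above control tumors 1 (6.69) and 2 (7.40). MEKi tumor 2 was the lowest of all tumors in 8 of the 9 genes, with Adgre1 lowest in MEKi tumor 4. CD40 tumor 3 was the highest in 7, with Csf1 and Cd14 highest in MEKi+CD40 tumor 1.

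**Figure D3:**
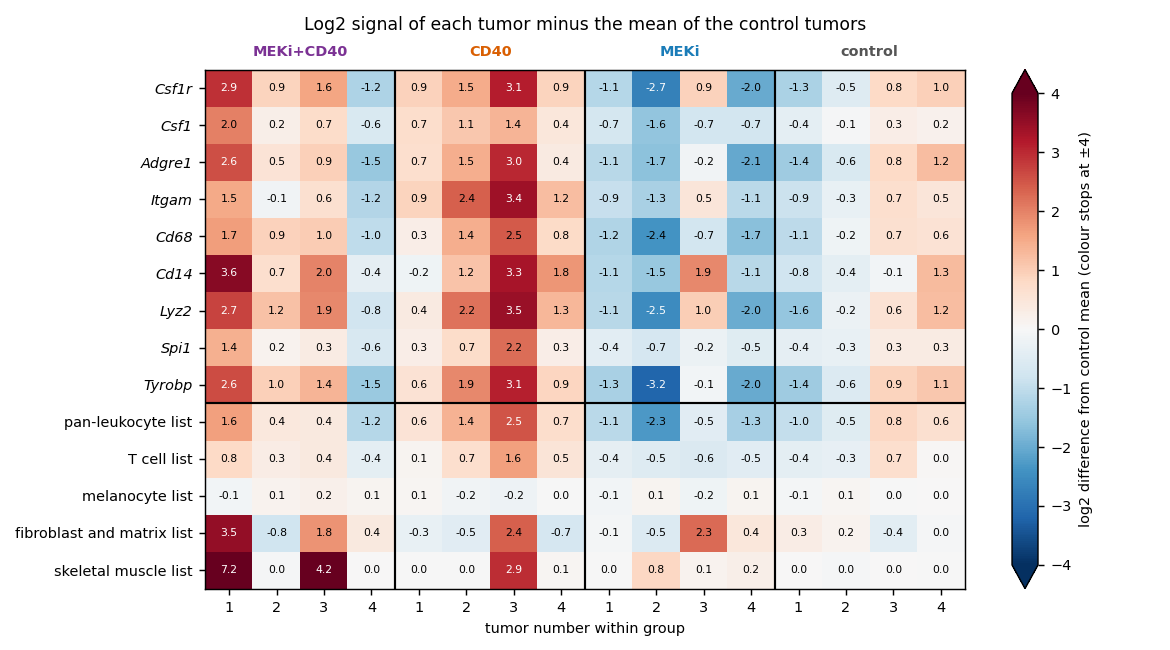
Log2 signal of each tumor (columns, grouped by treatment) minus the mean of the control tumors, for the 9 macrophage identity genes and for the mean of 5 marker lists (rows), printed in each cell and shown in colour from −4 (blue) to 4 (red). CD40 tumor 3 and MEKi+CD40 tumor 1 are red and MEKi tumor 2 is blue in all member rows, the pan-leukocyte row runs along with them, the melanocyte row stays near 0, and the skeletal muscle row is high in 3 tumors.

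Over the 16 tumors, Pearson r between pairs of the 8 members other than Csf1 ran from 0.812 (Itgam and Cd14) to 0.986 (Cd68 and Tyrobp), with a median of 0.915. After each group's mean was subtracted, the median was 0.928, so the genes ran together within groups as well as between them. Csf1 had r of 0.787 to 0.935 with the other 8, and 0.715 to 0.858 after the group means were subtracted. These values share arrays and tissue composition, and they describe the tumors only.

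The genes most like the members, by Pearson r over 16 tumors with the mean z score of the 8 members other than Csf1 among 18184 genes, were C3ar1 (0.990), Fermt3 (0.989) and Cd53 (0.988), followed by Ms4a6c, Nckap1l, Ms4a6b, Ifi209, Ncf4, Ncf1 and Cfp. C3ar1 encodes a complement receptor, Fermt3 the integrin activator kindlin-3, Cd53 a leukocyte tetraspanin, and Ncf1 and Ncf4 subunits of the phagocyte NADPH oxidase. After group means were subtracted, Cd53, Fermt3, C3ar1, Cfp and Ms4a6c led, and Ccl8, Ncf1, Itgb2, Plek and Slfn2 followed. The genes most like Csf1 were others, Tgm2 (0.969), Trim25, Slc15a3, Casp4 and Nod1 (0.960). Among the lists, the mean of the macrophage lysosome and phagocytosis genes had r of 0.986 with the members and the pan-leukocyte list 0.975, against 0.895 for T cells, 0.561 for skeletal muscle, 0.497 for fibroblast and matrix genes, 0.635 for conventional dendritic cells and −0.454 for melanocyte genes. After group means were subtracted, the values were 0.987 for the lysosome and phagocytosis genes, 0.971 for the pan-leukocyte list, 0.795 for T cells, 0.657 for skeletal muscle, 0.711 for fibroblast and matrix genes, 0.845 for conventional dendritic cells and −0.628 for melanocyte genes. Within groups the muscle, fibroblast, dendritic cell and melanocyte lists thus followed the members more closely in size of r than over all 16 tumors, and the T cell list less closely.

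Each gene was also set against the mean of the other 7 members within the same tumor (Csf1 left out) and expressed relative to the control mean, a description chosen after the values were seen and given without a test. Itgam and Tyrobp were the only genes with groups free of overlap in this measure. The relative level of Itgam was −0.98, −0.89, −0.67 and −0.18 in MEKi+CD40 tumors. It was 0.48, 0.91, 0.43 and 0.35 in CD40 tumors and 0.13, 0.80, 0.12 and 0.55 in MEKi tumors. All 4 MEKi+CD40 tumors lay below all CD40 and all MEKi tumors, and Itgam lay below background in 1 MEKi+CD40 and 3 MEKi tumors. CD40 tumors also lay above all control tumors (−0.48 to 0.27), of which 2 lay below background for Itgam. Tyrobp was relatively higher in CD40 (−0.08 to 0.38) than in MEKi tumors (−1.36 to −0.29) without overlap. In the other 6 genes every pair of groups overlapped. Among them, Spi1 had larger mean shifts than Itgam. They were −1.40 for CD40 minus MEKi and −1.25 for MEKi+CD40 minus MEKi, against −1.22 for Itgam in MEKi+CD40 minus CD40.

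**Figure D4:**
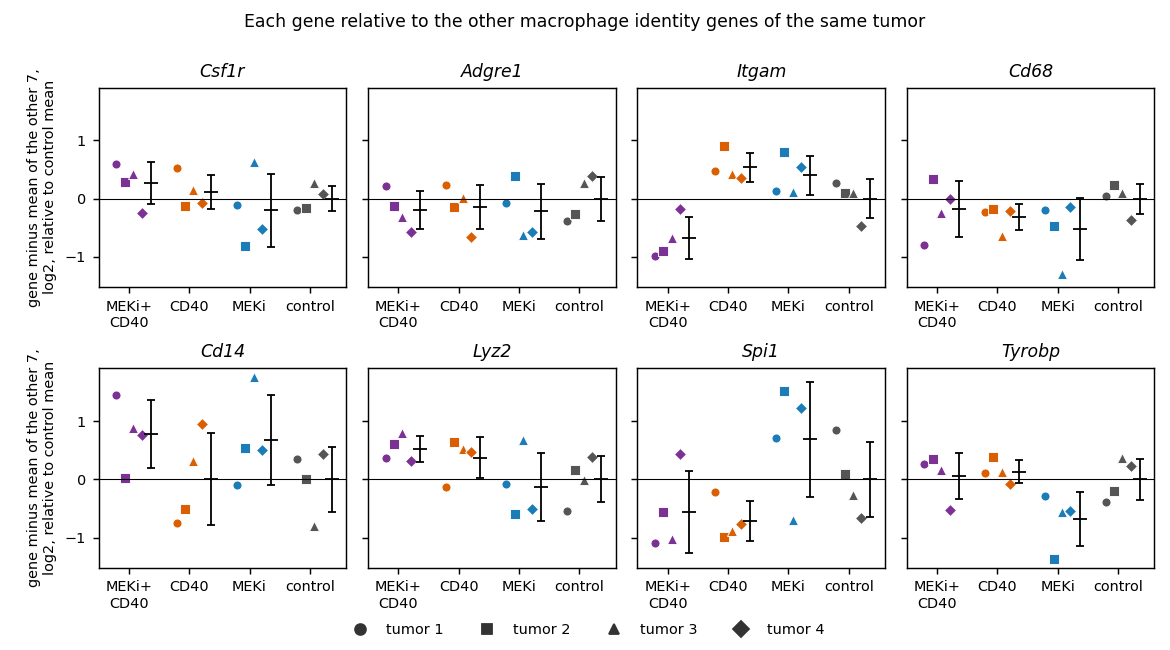
Log2 signal of each gene minus the mean of the other 7 macrophage identity genes of the same tumor, relative to the control mean (y axis), by group (x axis), with the group mean and SD (n = 4). Itgam lies lower in the 4 MEKi+CD40 tumors than in all CD40 and MEKi tumors, and Tyrobp lies higher in CD40 than in MEKi tumors.

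Genes that work with the members were followed as lists in CD40 minus MEKi, the comparison with member calls. In it, 0.77% of all probe sets were called higher and 0.122% lower. Among 7 genes of the beta 2 integrins and their partners, the family of CD11b, 4 were called higher and none lower: Icam1 (3.17), the ligand of these integrins, Itgb2 (2.94), their shared beta chain, Itgal (2.90) and Itgax (1.97), with a list median of 2.90. Of 20 lysosome and phagocytosis genes, 3 were called higher, Lgmn (1.04), a lysosomal protease, Cyba (1.42), a subunit of the phagocyte oxidase, and Aif1 (4.15), with a median of 1.23. Of 16 other surface genes of macrophages and monocytes, 3 were called higher, the Fc receptor Fcgr1 (3.59), the scavenger receptor Msr1 (3.15) and the receptor kinase Axl (3.11), with a median of 1.08.

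Of 10 macrophage transcription factors, 1 was called, Irf8 (3.10), a partner of PU.1, with a median of 0.76. Of 15 receptors and signalling genes around TYROBP, 1 was called, Sirpb1a (2.89), with a median of 1.18. In this list 12 genes were higher at an unadjusted p under 0.05, against 5.38% of all probe sets. Of 10 genes of the CSF1 axis and related growth factors, none was called, and Csf2ra (1.36) and Csf2rb (2.61), chains of the GM-CSF receptor, had among the lowest p. Of 11 genes of CD14 and TLR4 recognition none was called, with a median of 0.045, where Myd88 (1.00) and Tlr1 (2.13) had the lowest p. Of the 89 genes of these 7 lists, 12 were called higher (13.5%) and none lower, where 0.77% of all probe sets were called higher. Over all 18193 genes, each by its brightest probe set, 197 were called higher and 33 lower. In MEKi+CD40 minus MEKi, Maf (0.73), a macrophage transcription factor, and Cyba (1.30) were called, both higher, and in MEKi+CD40 minus CD40 only Icam2 (−0.55) was called, lower. These are 2 of 89 genes, or 2.25%, where 1.15% of all probe sets were called, and 1 of 89, or 1.12%, where 4.74% were. For either single agent against control, and for MEKi+CD40 minus control, none of the genes of these 7 lists was called.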

How the data were processed

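RNA was isolated from a piece of each tumor, and 200 ng of total RNA was labelled with the 3′ IVT Plus kit and hybridised to an Affymetrix mouse array. The authors deposited log2 values made by robust multichip averaging (RMA) after quality control, in the Chipster software, in a version not given in the sources used here. These log2 values entered the tests without further scaling, and all 16 arrays were kept. The number of arrays, 4 per group, limits the precision.

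Affymetrix control probe sets (64 of 45101) were removed. In the platform annotation, 34945 of the remaining 45037 have 1 gene symbol, 932 have several and 9160 have none. Pairs of groups were compared on their own 8 arrays with limma 3.58.1 (lmFit, eBayes) under R 4.3.3, and the interaction was fitted over the whole set of arrays. Benjamini-Hochberg adjustment ran over every probe set tested. Exact two-sided permutation tests covered the 70 splits of 8 tumors. Background was set at the 95th percentile of mean signal over 43 probe sets of olfactory receptors. List levels are means of log2 signal over the genes of a list, with 191 of 209 genes measured. The fits were tested on simulated data.

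Members and lists were chosen with earlier results of these data known. Named genes are the members, at most 4 genes of a list by lowest p in the comparison described, the 10 genes most correlated with the members and the 5 most correlated with Csf1. Alternatives were a single fit of all arrays, the replicate number as block, removal of probe sets with low signal, a single probe set or the mean of probe sets for each gene, cyclic loess, centring on the median, trend and robust eBayes, array weights, omission of the 3 tumors with muscle transcripts, and omission of each tumor in turn. Figures came from matplotlib 3.10.9, and tables from pandas 2.3.3 and numpy 2.4.6 under Python 3.11.15.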

Additional observations from a re-analysis of the deposited data

Results flagged for a closer look

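Among the 14 member probe sets, each looked at in 4 groups, 3 values lay far from the other tumors of their group. Chance alone flags about 1 in 20 groups of this size, so about as many flags would arise by chance. Cd14 was 8.35 in MEKi tumor 3, and the gap to the next tumor was 0.881 of the group's range. The brightest Csf1 probe set was 6.78 in MEKi tumor 2, with a gap of 0.966 of the range, and the third brightest Csf1 probe set was 6.08 in MEKi tumor 3, with a gap of 0.868 of the range. MEKi tumor 2 was also the lowest tumor in most other members, whereas MEKi tumor 3 was the highest MEKi tumor in all members but Csf1.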

How the results depend on the processing

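Of 1187 values of the 63 member differences under alternatives, 1139 kept their direction and their side of the threshold, 30 changed sign, 10 newly passed the threshold and 8 no longer did, and no called difference changed sign. This tally is no measure of robustness. Only 2 of the 63 differences were called in the reported fit. The single fit, replicate block, signal filter, single probe set per gene, and trend and robust eBayes leave a difference unchanged, so its sign was fixed. For CD40 against control or MEKi, omitting the muscle-bearing tumors equals omitting CD40 tumor 3. For CD40 minus MEKi, 5 members were called with the replicate block (Csf1r, Csf1, Adgre1, Itgam and Cd68), where 0.659% of all probe sets were called. With array weights 3 were called (Csf1, Itgam and Cd68), where 1.09% of all probe sets were. Without the muscle-bearing tumors 3 were called (Csf1, Cd68 and Spi1), where 0.995% of all probe sets were. Cyclic loess called 1 (0.846% of all probe sets), and trend and robust eBayes called 1 (0.5%). The reported fit called 2 (0.893%), and 0 to 3 were called when a tumor was left out (0.222% to 0.995%). The Csf1 call was lost without CD40 tumor 2 alone (adjusted p = 0.0764), and its adjusted p ran from 0.0127 to 0.0764 over the alternatives. The adjusted p of Cd68 ran from 0.0294 to 0.149, and the settings that lost its call are named with its values. For MEKi+CD40 minus MEKi, 2 members were called with all 16 arrays in 1 fit (Csf1 and Cd68), where 10.4% of all probe sets were called. The reported fit called no member, where 1.15% of all probe sets were. When a tumor was left out, 0 to 1 members were called, where 0% to 3.23% of all probe sets were. The median was 0.75 without the muscle-bearing tumors. The cause of these changes was not tested.

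The values that changed sign were all uncalled. In MEKi+CD40 minus control, without the muscle-bearing tumors, Csf1r was −0.17, Csf1 −0.18, Adgre1 −0.49, Itgam −0.66, Cd68 −0.045, Spi1 −0.245 and Tyrobp −0.26, and with array weights Itgam was −0.23 and Spi1 −0.0157. In the interaction, without those tumors, Csf1r was −0.0367, Adgre1 −0.0817 and Cd14 −0.295. When 1 tumor at a time was left out, Adgre1 ran in MEKi+CD40 minus control from −0.0125 to 1.35, Itgam −0.23 to 0.68 and Spi1 −0.055 to 0.64. In MEKi+CD40 minus CD40 the ranges were Csf1r −1.19 to 0.19, Csf1 −0.78 to 0.095, Cd14 −0.74 to 0.59, Lyz2 −1.06 to 0.10 and Tyrobp −1.34 to 0.0208. In the interaction they were Adgre1 −0.15 to 1.22, Cd14 −0.28 to 1.24 and Spi1 −0.48 to 0.34.

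The replicate numbers showed no clear pairing of the tumors. The deviations of 24 same-numbered pairs correlated between −0.583 and 0.545, with 9 above 0.1, against −0.695 to 0.714 for pairs of other numbers. Of 16 tumors, 4 correlated best with their own number. Such scatter cannot decide whether same-numbered tumors were handled together. The replicate block moved the number of members called in CD40 minus MEKi as given above and changed no other count of members. Counts over all probe sets moved more. For CD40 minus MEKi, 402 probe sets were called, against 225 with trend and robust eBayes and 249 with the mean of a gene's probe sets. For MEKi+CD40 against the other groups they ran from 0 with the replicate block to 4904 (control), 4699 (MEKi) and 5309 (CD40) with all arrays in 1 fit. Signal near background limits Itgam in MEKi, control and MEKi+CD40 tumors, and Cd14 and Adgre1 in MEKi tumors. It may also limit Spi1 in MEKi tumors, which lay just above background.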
